A study of Mus musculus with 12 samples.

Results

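The detoxification genes described here are the cytochrome P450 genes of families 1 to 4, the UDP-glucuronosyltransferases of families 1 and 2, the glutathione S-transferases of the alpha, kappa, mu, omega, pi and theta classes, and the sulfotransferases. They were chosen by gene symbol alone, which gave 119 of the 21792 genes in the expression table. Of these, 116 had a mean value of at least 1 over the 12 libraries and were tested, and the untested members were Cyp4f14, Cyp4f37 and Sult6b1. The members were 72 P450 genes (Cyp), 15 glucuronosyltransferase genes (Ugt), 20 glutathione transferase genes (Gst) and 12 sulfotransferase genes (Sult). In the GENCODE M21 annotation of GRCm38, 113 of the 119 are protein coding.

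RNA of colon tumours from FvB mice was sequenced, with 3 libraries for each of 4 genotypes. All mice had received azoxymethane, a colon carcinogen, as an intraperitoneal injection of 10 mg/kg in each of 6 weeks, and tumours were taken at week 16 after the first injection. The genotypes were wt, a loss of miR-34a in intestinal epithelial cells (IEC), a loss of p53 in these cells, and the loss of both, called double deficient here. The labels used here give neither the age and sex of the mice nor whether the 3 libraries of a genotype are from different mice, and each p-value then rests on the spread among these libraries, which may be technical. The deletions were made in epithelial cells while a tumour also holds stroma and immune cells, and in such bulk tissue fewer cells of a type and less RNA per cell cannot be told apart.

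Phase I enzymes such as the P450s oxidize foreign compounds, steroids, bile acids and fatty acids, and phase II enzymes join the product to glucuronic acid, glutathione or sulfate so that it can be excreted. The liver holds most of this capacity, but the colon epithelium also expresses members of each family, and several of them mark the differentiated cells near the lumen. Many members are induced through the aryl hydrocarbon receptor AHR, the pregnane X receptor or the oxidant sensor NRF2 (gene Nfe2l2), and the liver and gut factors HNF1 and HNF4 maintain others. Azoxymethane itself is activated by a P450, CYP2E1.

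The 250 bases before the RefSeq start site were read for the 98 members with an entry in the RefSeq promoter table (GRCm38.p6). Of these, 6 are printed because the results below turn on these genes: Cyp2f2 and Cyp2c67, which were low in every library without p53, Cyp2d9 and Cyp2d11, 2 genes of a cluster that was low in double deficient tumours, and Gsta1 and its near copy Gsta2. Capitals mark a match to 1 of the motifs searched on both strands.
Cyp2f2 (chr7:27119705-27119954, plus strand): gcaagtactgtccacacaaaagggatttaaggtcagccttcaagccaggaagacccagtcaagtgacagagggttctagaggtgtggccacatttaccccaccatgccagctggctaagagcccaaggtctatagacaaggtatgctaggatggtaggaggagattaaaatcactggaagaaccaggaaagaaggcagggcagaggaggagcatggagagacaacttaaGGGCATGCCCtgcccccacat
Cyp2c67 (chr19:39649043-39649292, minus strand): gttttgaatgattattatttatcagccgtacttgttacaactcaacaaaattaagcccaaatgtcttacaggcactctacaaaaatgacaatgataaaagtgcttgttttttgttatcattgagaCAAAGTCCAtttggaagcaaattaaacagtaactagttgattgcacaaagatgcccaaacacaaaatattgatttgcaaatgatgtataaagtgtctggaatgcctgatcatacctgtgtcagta
Cyp2d9 (chr15:82452127-82452376, plus strand): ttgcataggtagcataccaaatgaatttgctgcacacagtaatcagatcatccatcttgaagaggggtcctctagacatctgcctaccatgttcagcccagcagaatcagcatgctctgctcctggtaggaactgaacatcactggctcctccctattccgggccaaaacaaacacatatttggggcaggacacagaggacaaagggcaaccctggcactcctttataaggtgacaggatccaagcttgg
Cyp2d11 (chr15:82394023-82394272, minus strand): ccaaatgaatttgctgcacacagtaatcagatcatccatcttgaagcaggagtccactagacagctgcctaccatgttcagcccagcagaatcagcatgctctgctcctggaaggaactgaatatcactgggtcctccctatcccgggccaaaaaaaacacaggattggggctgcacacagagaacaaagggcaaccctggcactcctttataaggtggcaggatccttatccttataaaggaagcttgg
Gsta1 (chr9:78230419-78230668, plus strand): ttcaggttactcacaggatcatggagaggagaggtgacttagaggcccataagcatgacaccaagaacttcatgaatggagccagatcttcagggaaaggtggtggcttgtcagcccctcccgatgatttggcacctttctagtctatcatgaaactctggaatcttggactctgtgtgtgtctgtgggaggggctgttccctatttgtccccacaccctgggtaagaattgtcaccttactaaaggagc
Gsta2 (chr9:78347146-78347395, minus strand): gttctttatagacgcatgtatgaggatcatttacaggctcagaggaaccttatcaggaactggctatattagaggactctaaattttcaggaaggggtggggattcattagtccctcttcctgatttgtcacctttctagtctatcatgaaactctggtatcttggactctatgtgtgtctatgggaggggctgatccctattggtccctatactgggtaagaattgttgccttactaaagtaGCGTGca
In Cyp2f2 the capitals mark GGGCATGCCC, a match to the p53 decamer consensus that begins at base -21, counting back from -1 at the base before the start site. The decamer is a part of a p53 site and not a whole one. Such a decamer was found in 7.14% of the member promoters and in 7.16% of the 27025 promoters in the table. In Cyp2c67 they mark the HNF4 element CAAAGTCCA at -125, which was present in 10 of the 98 member promoters (10.2%) and in 0.377% of all promoters. The 10 belong to the Cyp2c and Cyp3a genes, which share sequence with each other. The HNF1 motif GTTAAT, also a part of a site and not a whole one, was found in 17.3% of the members and 6.54% of all promoters. Cyp4f40 holds a match at -151. The core of the NRF2 element, TGACNNNGC, was found in 3.06% of the members and 10.1% of all, and the core of the AHR element, GCGTG, in 19.4% and 28.3%. Gsta2 holds GCGTG at -7, and Gsta1 holds none of the motifs in these bases. Neither Cyp2d9 nor Cyp2d11 holds a match, and their promoters were identical at 219 of 234 aligned bases (93.6%). The promoters of Gsta1 and Gsta2 were identical at 76.2% of aligned bases. A match is a stretch of letters and not a measured binding site.

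The deposited values are normalized expression values rounded to whole numbers. Their depth is unknown, and since it is not known whether they were scaled by gene length, levels are compared between libraries and not between genes. Differences are given as differences of mean log2(value + 1) with the standard error (SE) of limma's model, which was fitted to all 21322 tested genes, and a member counts as changed at a Benjamini-Hochberg adjusted p under 0.05 over all of these genes. A fold is 2 raised to that difference and understates the change of low values. Trp53, the p53 gene, checks the labels: its values were 4126 to 4512 in wt, 3466 to 5120 in miR-34a deficient, 401 to 598 in p53 deficient and 504 to 924 in double deficient libraries. No value is given here for miR-34a itself. Column sums ran from 45310209 to 101121673, and members took 0.134% to 0.274% of them. Within genotypes 1 direction of variation was absent from the values (singular values of 32.2 for the seventh and 0.179 for the eighth dimension over 9791 genes). Double deficient 3 held 47.2% and double deficient 2 held 16.5% of its squared weights, so that the spread of the double deficient libraries is understated. The library p53 deficient 2 stood apart in its posterior Hox genes, with a mean log2 level of 8.40 where the other libraries had 11.73 to 15.64. The 4 Y-linked genes checked were at 0 in wt 1 and miR-34a deficient 1 and had a mean log2 level of at most 0.79 in the double deficient libraries, but 2.77 to 6.98 in the other 7 libraries. The wt libraries are the control of several comparisons, and each double deficient library enters several, so the comparisons are not independent of each other.

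Loss of p53 was examined over both backgrounds by setting the p53 deficient and double deficient means against the wt and miR-34a deficient means. In this comparison 12 of the 116 members were lower and 0 higher. Of all tested genes, 5.05% were called in either direction and 2.84% lower. The 12 were 10 P450 genes and 2 sulfotransferases, and no glucuronosyltransferase or glutathione transferase was among them. For 4 members every library without p53 lay below every library with it, as it did for 1.36% of all genes: Cyp2f2, Sult4a1, Cyp2c67 and Cyp4f40. The median difference over the 116 members was -0.28, and it was -0.06 over all tested genes. The count of 12 fell to 6 without wt 1, 5 without wt 2, 7 without wt 3, 4 without miR-34a deficient 1, 3 without miR-34a deficient 2, 4 without p53 deficient 3 and 2 without double deficient 3, and it was 3 with the absent direction as a covariate. Without wt 1 and miR-34a deficient 1 together it was 2.

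**Figure D1:**
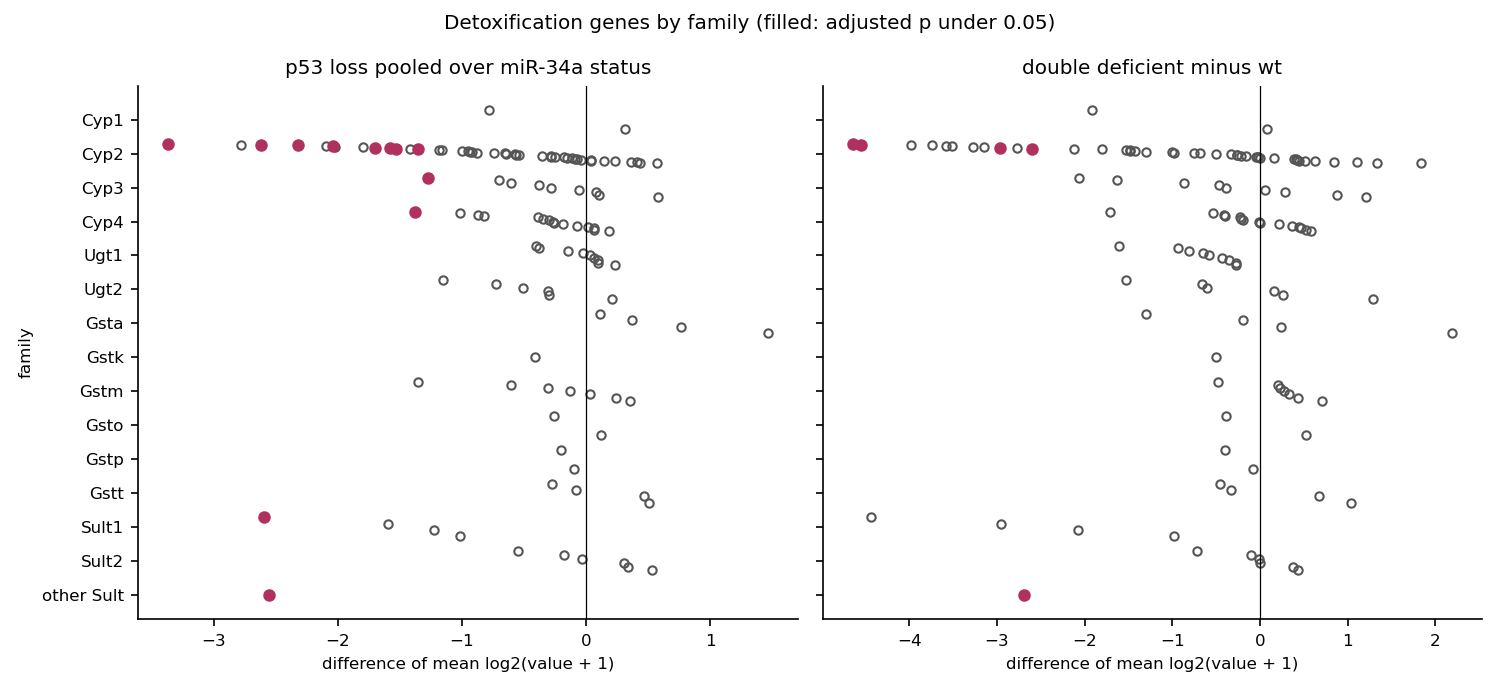
Difference of mean log2(value + 1) for each tested member by family, with 1 point per gene and filled points for adjusted p under 0.05, for p53 loss over both backgrounds (left) and for double deficient minus wt (right). The filled points lie left of 0 in both panels, mostly in the Cyp2 row, while the glutathione transferase rows hold open points on both sides of 0.

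Cyp2f2 encodes a P450 best known from the club cells of the airway, where it activates naphthalene. It lies on chromosome 7 (chr7:27119909-27133660, plus strand, GRCm38). Its values were 76, 36 and 108 in wt, 67, 203 and 70 in miR-34a deficient, 33, 20 and 14 in p53 deficient and 1, 5 and 1 in double deficient libraries. The groups with and without p53 did not overlap, and the double deficient libraries lay below all others. The difference with p53 loss was -3.36 ± 0.43 (SE), a 10.3-fold lower level (limma adjusted p = 0.00507), and it passed in all 26 alternative analyses. Against wt the double deficient tumours were lower by 4.55 ± 0.61 on the log2 scale, or 23.5-fold (limma adjusted p = 0.00806), a call lost without double deficient 3 and without wt 1 and miR-34a deficient 1 together. Against miR-34a deficient tumours the difference was -5.11 ± 0.61, or 34.5-fold (limma adjusted p = 0.00381), and it passed in all 27 alternatives. The p53 deficient tumours with miR-34a intact differed from wt by -1.62 ± 0.61 and did not pass (limma adjusted p = 0.247). Whether the effect of p53 loss differed with miR-34a status was tested by the interaction term, which gave -3.49 ± 0.87 (limma adjusted p = 0.361).

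Sult4a1 encodes a sulfotransferase known mainly from brain, whose enzymatic activity is uncertain. It lies on chromosome 15 (chr15:84076097-84105754, minus strand). Its values were 665, 254 and 273 in wt, 339, 697 and 1119 in miR-34a deficient, 202, 122 and 68 in p53 deficient and 46, 73 and 49 in double deficient libraries. Every library without p53 was lower than every library with it. The highest values were those of miR-34a deficient 3 (1119) and miR-34a deficient 2 (697), while miR-34a deficient 1 (339) lay below wt 1 (665). Loss of p53 gave -2.56 ± 0.37, or 5.88-fold lower (limma adjusted p = 0.00939, passed in 26 of 26 alternatives). The double deficient tumours were lower than miR-34a deficient tumours by 3.53 ± 0.52 on the log2 scale (limma adjusted p = 0.0138), a call lost without miR-34a deficient 2 or double deficient 3. Against wt they differed by -2.69 ± 0.52 (limma adjusted p = 0.0456), which passed in only 11 of 27 alternatives.

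Cyp2c67 belongs to the Cyp2c enzymes, which epoxidize arachidonic acid and oxidize drugs, and lies on chromosome 19 (chr19:39608842-39649051, minus strand). Its values were low throughout: 10, 7 and 10 in wt, 40, 23 and 11 in miR-34a deficient, 3, 3 and 4 in p53 deficient and 5, 3 and 4 in double deficient libraries. All 6 libraries without p53 were at 5 or below and the other 6 at 7 or above. The difference was -1.70 ± 0.32 (limma adjusted p = 0.0192). The call was lost without double deficient 3 and without wt 1 and miR-34a deficient 1 together. Its coding sequence is 97.7% identical to those of Cyp2c69 and Cyp2c40 and 97.1% identical to that of Cyp2c68, which had values of 134 to 17967. The authors' counting could therefore split reads among these copies, and their values are not independent measurements. Cyp2c69 was listed at 0 in all 3 double deficient libraries and at 1 to 3 in the others. Both genes also passed in double deficient against miR-34a deficient tumours (limma adjusted p = 0.0479 for Cyp2c67 and 0.0475 for Cyp2c69), with calls that held in 6 of 27 and 5 of 26 alternatives.

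Cyp4f40 belongs to the Cyp4 omega hydroxylases, which act on fatty acids and eicosanoids, and lies in a row of Cyp4f genes on chromosome 17 (chr17:32658900-32676914, plus strand). The libraries gave 1156, 555 and 607 in wt, 897, 1028 and 530 in miR-34a deficient, 278, 448 and 447 in p53 deficient and 133, 326 and 252 in double deficient tumours. Each library without p53 was at 448 or below and each library with it at 530 or above. The difference was -1.38 ± 0.28, or 2.60-fold (limma adjusted p = 0.0239). The call was lost without miR-34a deficient 1, miR-34a deficient 2 or double deficient 3. It was also lost without the 2 libraries with the rarer code in their names, and without wt 1 and miR-34a deficient 1 together. With the absent direction as a covariate it was lost as well. Cyp4f16 had values of 1012 to 1419 in wt and 737 to 1023 in double deficient libraries and was not called. Of the 15 tested Cyp4 genes only Cyp4f40 passed with p53 loss, and 11 of 15 differences were below 0 with a median of -0.26.

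**Figure D2:**
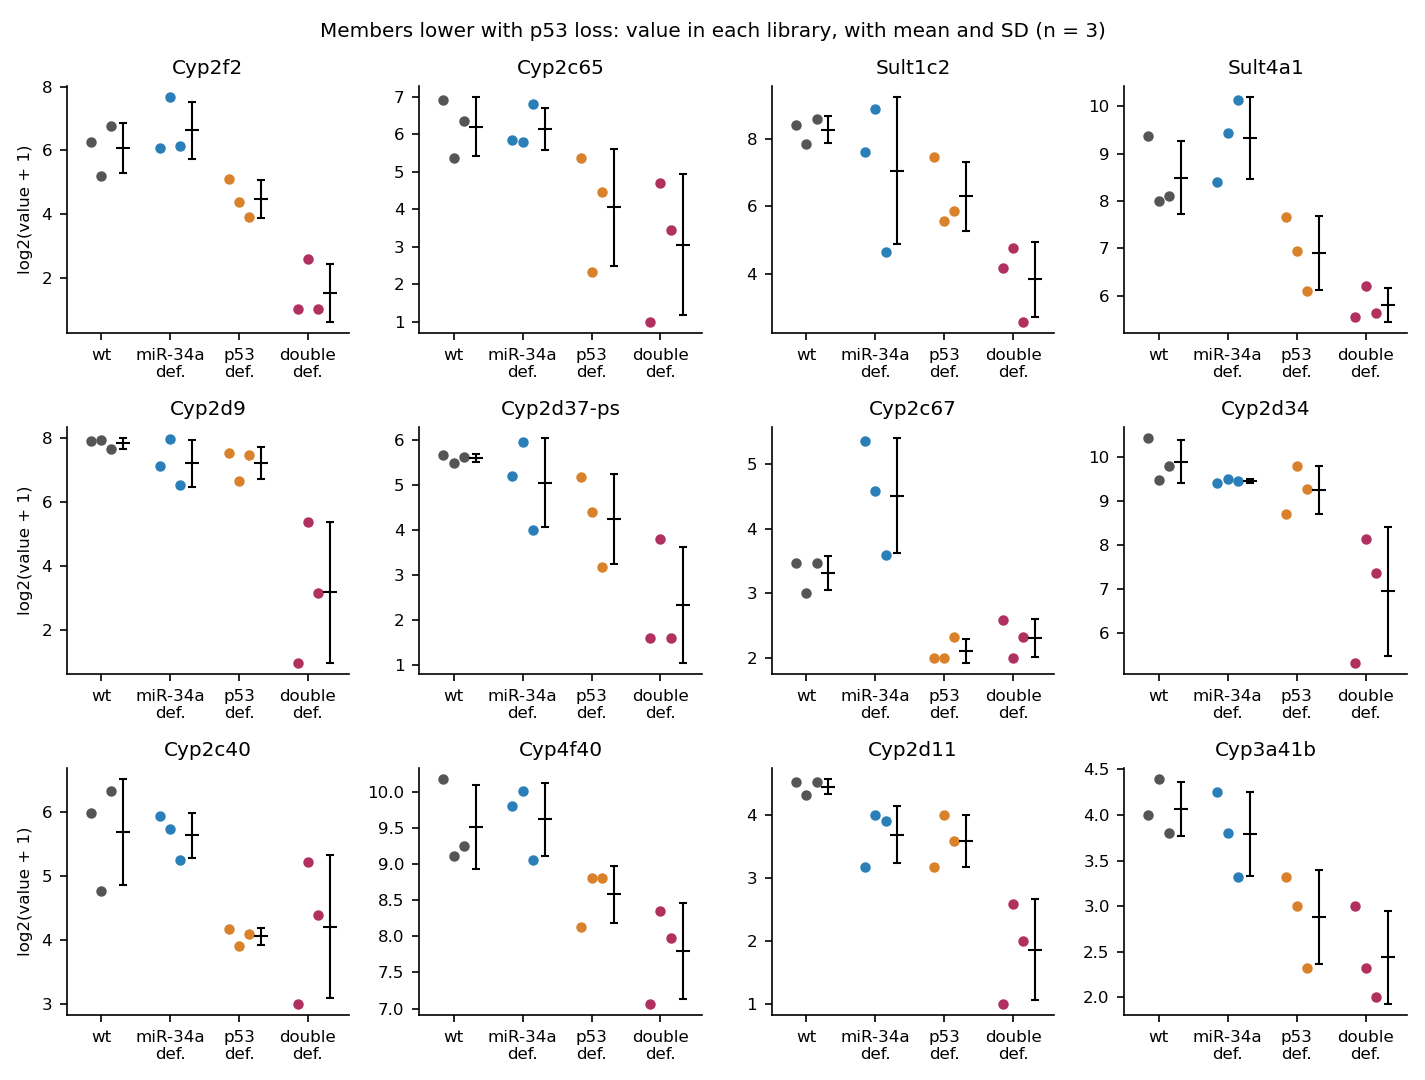
The log2(value + 1) of the 12 members called lower with p53 loss, with 1 point per library and the mean ± SD of the 3 libraries of each genotype beside it. Cyp2f2, Sult4a1, Cyp2c67 and Cyp4f40 show no overlap between the libraries with and without p53, while in Cyp2d9, Cyp2d34 and Cyp2d11 the p53 deficient libraries lie near the miR-34a deficient ones and the double deficient libraries lie lowest.

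The other 8 members called lower with p53 loss had groups that overlapped. They were Cyp2c65 (-2.62 ± 0.66), Cyp2c40 (-1.53 ± 0.39), Cyp3a41b (-1.27 ± 0.30), Sult1c2 (-2.60 ± 0.67) and the Cyp2d genes Cyp2d9 (-2.32 ± 0.59), Cyp2d37-ps (-2.04 ± 0.50), Cyp2d34 (-1.58 ± 0.41) and Cyp2d11 (-1.35 ± 0.32). Their limma adjusted p-values ran from 0.0378 to 0.0487. Cyp2c65 had values of 119, 40 and 80 in wt, 56, 54 and 110 in miR-34a deficient, 40, 4 and 21 in p53 deficient and 1, 25 and 10 in double deficient libraries. Its overlap rests on p53 deficient 1, which equalled the lowest wt library. Its coding sequence is 96.3% identical to that of Cyp2c66, which stayed at 7 to 24 in all libraries. Of the 14 Cyp2c genes, 13 had a difference below 0, with a median of -0.98, and 3 passed. Cyp2c68 ranged from 3640 to 10529 in wt and from 134 to 1430 in double deficient libraries, but miR-34a deficient 3 (815) and 2 of the p53 deficient libraries (735 and 536) were low as well, and it did not pass (-2.78 ± 0.85, limma adjusted p = 0.0773). Its coding sequence is 98.1% identical to that of Cyp2c40. Cyp2c55, a colon P450 known to be induced through the pregnane X receptor, went from 308, 47 and 165 in wt to 6, 25 and 7 in double deficient libraries and did not pass with p53 loss (-2.09 ± 0.61, limma adjusted p = 0.0668).

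The Cyp2d genes lie side by side on chromosome 15 (chr15:82370527-82794294) and oxidize drugs and steroids. In double deficient against wt tumours all 10 members had a difference below 0, with a median of -2.86. At an unadjusted limma p under 0.05 there were 9, and 3 passed the adjusted threshold. Of all tested genes, 48.3% were below 0, 15.3% had an unadjusted p under 0.05 in either direction and 0.582% were called lower. The cluster was chosen after its values were seen. With the single losses all 10 differences were also below 0, with medians of -0.55 for miR-34a and -0.65 for p53, and none passed. Of all tested genes, 45.7% were below 0 with the loss of miR-34a and 53.6% with that of p53. Cyp2d9, whose liver expression is known to be higher in males, had values of 237, 246 and 199 in wt, 139, 248 and 91 in miR-34a deficient, 184, 99 and 175 in p53 deficient and 1, 41 and 8 in double deficient libraries. The double deficient libraries were below all others and 25.0-fold below wt (-4.64 ± 0.84, limma adjusted p = 0.0336). The Y-linked genes were at 0 in wt 1 and miR-34a deficient 1, which had 237 and 139. Their mean log2 level was at most 0.79 in the double deficient libraries. When the fit included the Y-linked level, the Cyp2d9 call was lost, as were the calls of Cyp2d34 and Cyp2d11 given next. The labels give no sex, and its part in these values was not tested beyond this fit. Cyp2d34 had 1383, 713 and 890 in wt and 39, 283 and 164 in double deficient libraries (-2.96 ± 0.58, limma adjusted p = 0.0456), and Cyp2d11 had 22, 19 and 22 against 1, 5 and 3 (-2.59 ± 0.45, limma adjusted p = 0.0296). Both also had groups that did not overlap. The calls held in 12 of 27 alternatives for Cyp2d9, 9 for Cyp2d34 and 17 for Cyp2d11, and all 3 were lost without double deficient 3, without double deficient 1 and without any 1 of the wt libraries.

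The genes of the cluster did not all behave in this way. Cyp2d26, at its far end, had 107, 55 and 49 in wt and 25, 110 and 60 in double deficient libraries, and these overlapped. Cyp2d41-ps, an annotated pseudogene next to it, was listed at 0 in all 3 double deficient libraries and at 4 to 8 in wt. Cyp2d10 overlapped between the groups through double deficient 2, which had the highest value of the double deficient libraries in every Cyp2d gene but Cyp2d41-ps. The coding sequence of Cyp2d11 is 94.7% identical to Cyp2d10 and 93.3% identical to Cyp2d9. Reads could therefore have been shared among the genes, and the 10 are not independent measurements.

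**Figure D3:**
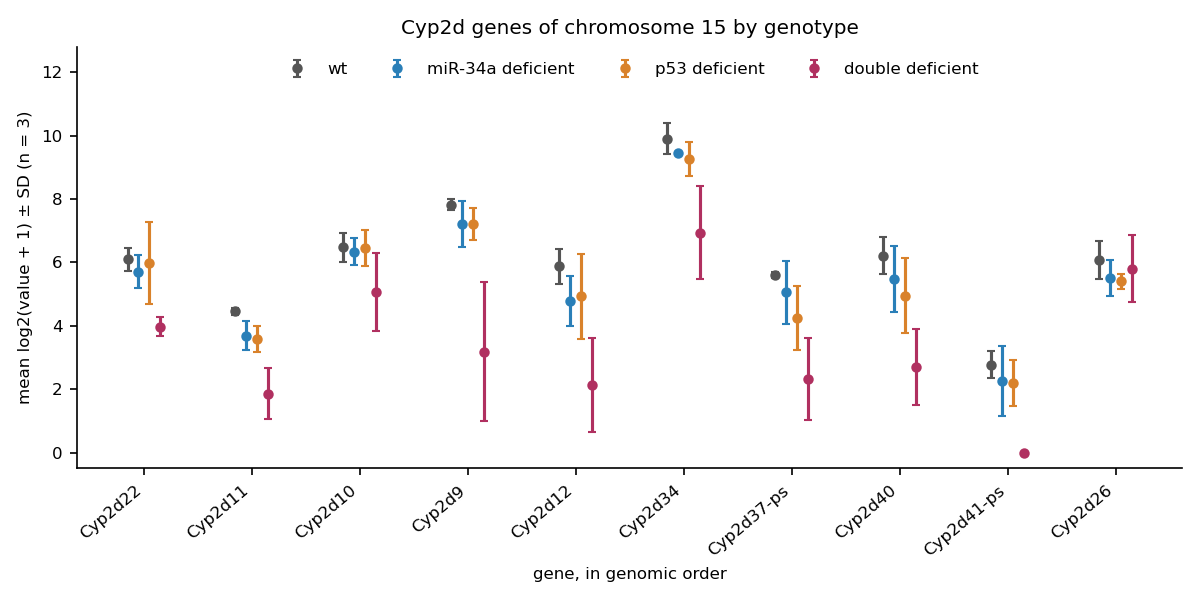
Mean log2(value + 1) ± SD of the 3 libraries of each genotype for the 10 Cyp2d genes, in their order along chromosome 15. The double deficient mean lies lowest in every gene but Cyp2d26. The wt mean lies highest in every gene, with gaps to the single losses that vary by gene. In Cyp2d37-ps the means are 5.59 in wt, 5.05 in miR-34a deficient and 4.24 in p53 deficient libraries.

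Over all members, the double deficient tumours had 5 members lower than wt and 0 higher: Cyp2f2, Cyp2d9, Cyp2d34, Cyp2d11 and Sult4a1. Of all tested genes, 0.802% were called in either direction and 0.582% lower. For 29 members all 3 double deficient libraries lay below all 3 wt libraries, as was so for 10.1% of all genes. The number called was 0 without double deficient 3 and without wt 1 and miR-34a deficient 1 together, 1 without any wt library or double deficient 1, 3 without miR-34a deficient 1, and 8 without p53 deficient 2 or double deficient 2. Against miR-34a deficient tumours 4 members were lower and 0 higher (Cyp2f2, Sult4a1, Cyp2c67 and Cyp2c69), where 0.905% of all genes were called and 0.619% were lower. Here 32 members had groups that did not overlap in the lower direction, against 14.3% of all genes. The count was 2 without wt 1, miR-34a deficient 1, double deficient 1 or any p53 deficient library, and 1 without miR-34a deficient 2 or double deficient 3.

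The Sult1 genes sulfate phenols and, in the colon, many dietary compounds. With p53 loss all 4 had a difference below 0, with a median of -1.41, and Sult1c2 was the 1 that passed. Sult1c2 had 337, 227 and 382 in wt, 196, 472 and 24 in miR-34a deficient, 176, 46 and 57 in p53 deficient and 17, 26 and 5 in double deficient libraries. The miR-34a deficient 3 library was as low as the double deficient ones, which is where the groups overlapped. This library stood apart in other markers, as given below. Sult1b1 had 1243, 588 and 1284 in wt and 37, 345 and 153 in double deficient libraries, with 514 to 1197 in the p53 deficient ones. It passed in neither comparison (limma adjusted p = 0.0677 against wt and 0.0671 with p53 loss). Sult1d1 had 382 to 962 in wt and 145 to 172 in double deficient libraries, which did not overlap, and did not pass (limma adjusted p = 0.108 against wt). Sult1a1, the main phenol sulfotransferase, was low throughout, with 26 to 64 in wt and 11 to 20 in p53 deficient libraries (-1.22 ± 0.34 with p53 loss, limma adjusted p = 0.0629). The Sult2 genes, which sulfate steroids and bile acids, were split with 3 of 6 differences below 0, and Sult2b1 stayed between 513 and 1484 in all libraries.

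The lower Cyp2d and Sult1 levels stood beside lower levels of cell type markers. The mean log2 level of 19 surface colonocyte markers was 10.65 to 11.27 in wt, 9.92 to 10.83 in miR-34a deficient, 10.18 to 10.23 in p53 deficient and 7.79 to 9.53 in double deficient libraries, where their summed value was 61862 to 181819 against 233470 to 277737 in wt. In double deficient 1 a single marker was at 0, and in the other libraries none was. Of these markers 7 of 19 were lower in double deficient than in wt tumours, and 6 of 19 with p53 loss, all by the same limma test. Of all tested genes, 0.582% were lower in the first comparison and 2.84% in the second. The 16 goblet cell markers had mean log2 levels of 11.90 to 12.93 in wt, 10.32 to 13.34 in miR-34a deficient, 10.93 to 11.94 in p53 deficient and 9.56 to 10.55 in double deficient libraries, with 2 and 4 lower in the same comparisons. The lowest miR-34a deficient library, number 3, lay inside the double deficient range. It also had a mean log2 level of 12.93 for 11 squamous epithelial markers, against 9.48 to 10.91 in the other libraries, with Krt5 at 115764 against 15 to 200. This library carries the low miR-34a deficient values of Sult1c2 and Cyp2c68 and the high value of Gstm7, and without it 11 members were called lower with p53 loss. The 12 general epithelial markers differed in neither comparison and stayed between 15.05 and 15.66 in all libraries. The order of the double deficient libraries was the same in the Cyp2d mean and in the colonocyte mean, with number 1 lowest and number 2 highest. In the goblet mean number 3 was lowest (9.56) and number 2 highest (10.55). An order of 3 libraries carries little weight. The part of cell composition in the member results was not tested.

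Markers of the liver and of other cell types were read in the same way. The 9 hepatocyte markers with a value had mean log2 levels of 4.51 to 5.04 in wt and 5.45 to 6.88 in double deficient libraries, and 1 of them, Ttr, was higher in the double deficient tumours (43 to 286 in wt and 1913 to 3201 in double deficient libraries). Albumin (Alb) was at 1 to 9 in wt and at 13 to 264 in double deficient libraries and was not called. Tat went the other way, with 293 to 358 in wt and 169 to 214 in double deficient libraries, which did not overlap, and was not called either. Of the 9 markers, 7 had a difference above 0 and 2 below. Of 13 small intestinal enterocyte markers, 1 was lower in double deficient than in wt tumours. Of 13 endothelial markers 2 were higher, and none of the fibroblast, smooth muscle or macrophage markers was called in that comparison. Of all tested genes, 0.22% were higher and 0.582% lower there.

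**Figure D4:**
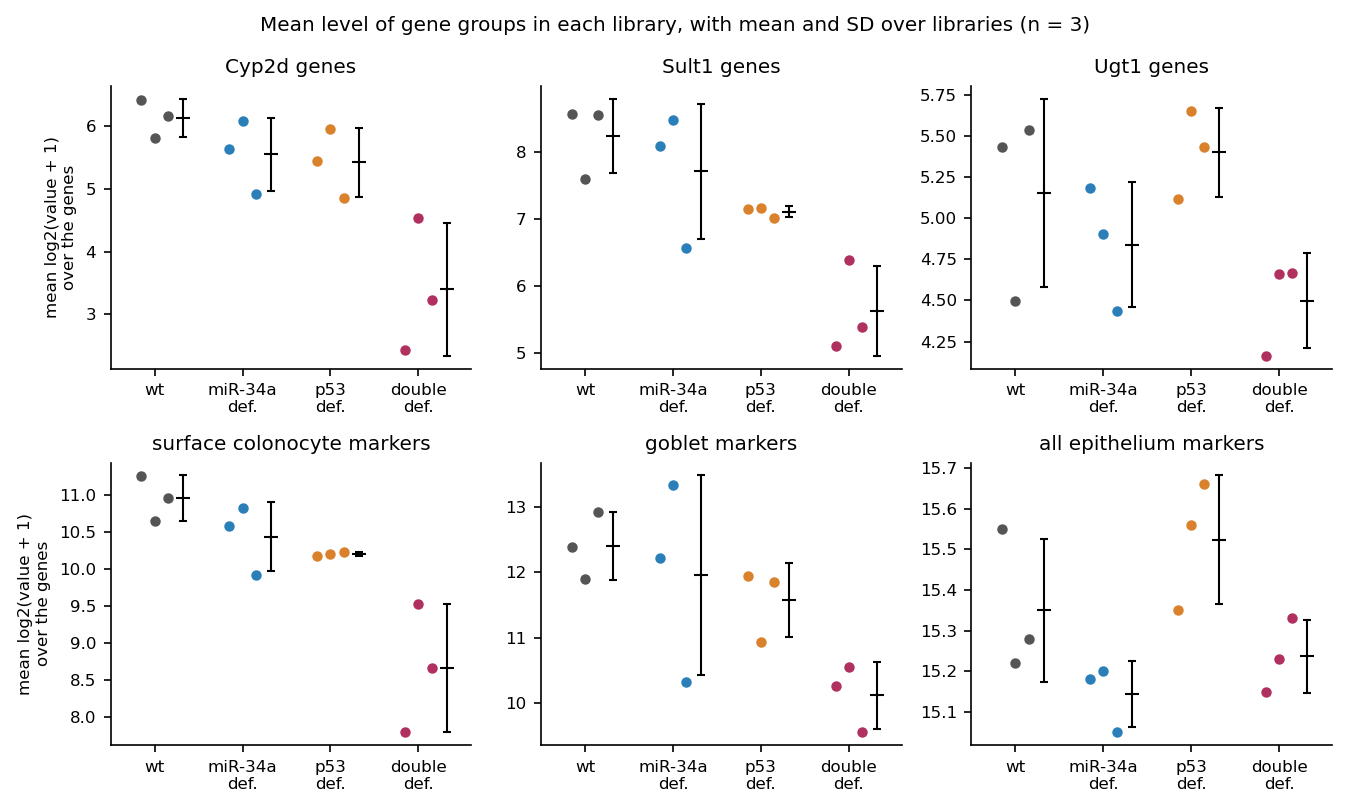
Mean log2(value + 1) over the genes of a group in each library, with the mean ± SD of the 3 libraries of each genotype, for Cyp2d, Sult1 and Ugt1 genes (top) and for surface colonocyte, goblet and general epithelial markers (bottom). The double deficient libraries lie lowest for Cyp2d genes (2.43 to 4.53) and colonocyte markers (7.79 to 9.53), and the general epithelial markers span 15.05 to 15.66.

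The glutathione transferases join glutathione to electrophiles. None of the 20 was called with p53 loss, and their differences were evenly split, with 10 above and 10 below 0. Gsta1, of the alpha class that also reduces lipid peroxides, was the exception among the other comparisons (chr9:78230656-78242684, plus strand). Its values were 788, 728 and 821 in wt, 419, 958 and 542 in miR-34a deficient, 1394, 3222 and 3374 in p53 deficient and 301, 299 and 351 in double deficient libraries. The p53 deficient libraries were the highest of all and the double deficient libraries the lowest, with no overlap with any other genotype in either case. It was the 1 member called between double and p53 deficient tumours, where it was lower by 2.96 ± 0.35 on the log2 scale, or 7.81-fold (limma adjusted p = 0.0036), and 0.605% of all genes were called. This call held in 25 of 27 alternatives and was lost when the Y-linked level was a covariate and with only those 2 groups in the fit. The mean log2 level of the Y-linked genes was 3.73 to 6.98 in p53 deficient and 0.25 to 0.79 in double deficient libraries. Genotype and Y-linked level therefore cannot be told apart between these 2 groups. The next smallest p-values between these genotypes were those of Cyp2d9 and Cyp2f2 (limma adjusted p = 0.0635 and 0.0647). The number of members called was 2 without p53 deficient 1 and 5 without double deficient 2.

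Gsta1 was also the 1 member called when miR-34a loss was set over both backgrounds (-1.67 ± 0.25, limma adjusted p = 0.0191), a comparison in which 0.342% of all genes were called. This call was lost without wt 1, wt 3, miR-34a deficient 1, miR-34a deficient 3, p53 deficient 2, p53 deficient 3, double deficient 1 or double deficient 3, and 2 members were called without wt 2 or double deficient 2. In p53 deficient against wt tumours Gsta1 differed by 1.67 ± 0.35 and did not pass (limma adjusted p = 0.0956). The interaction of the deletions was -2.59 ± 0.49 for Gsta1 (limma adjusted p = 0.231), and both of these values passed without p53 deficient 1 and when the code in the library names that p53 deficient 1 shares with miR-34a deficient 1 was a covariate. The coding sequence of Gsta2 is 98.0% identical to that of Gsta1. Gsta2 had 35 to 86 in wt, 31 to 60 in miR-34a deficient, 47 to 215 in p53 deficient and 45 to 92 in double deficient libraries, which overlapped. Its differences were 1.01 ± 0.55 for p53 deficient against wt, -0.77 ± 0.55 for double against p53 deficient and 0.24 ± 0.55 for double deficient against wt tumours, and none passed. The first 2 have the sign of those of Gsta1 and the third has not, and the difference between the genes was not tested. Gsta4, which detoxifies hydroxynonenal, a product of lipid peroxidation, stayed between 15759 and 33213 in all libraries. Gsta3 ranged from 1464 to 6037 in wt and from 6860 to 19440 in double deficient libraries, and these did not overlap, but the difference did not pass (2.19 ± 0.68, limma adjusted p = 0.162).

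The mu class genes lie together on chromosome 3 and were split. Gstm1 had 5382, 6502 and 7341 in wt and 12343, 11518 and 12141 in miR-34a deficient libraries, which did not overlap, and the difference of 0.92 ± 0.28 did not pass (limma adjusted p = 0.702). In double deficient libraries it had 11285, 5141 and 7732. Gstm7 had 5852, 8903 and 1843 in wt, 9553, 9705 and 26593 in miR-34a deficient, 2140, 1284 and 1315 in p53 deficient and 6397, 6069 and 6037 in double deficient libraries. Each miR-34a deficient library lay above each wt library, and each double deficient above each p53 deficient library. The difference with miR-34a loss over both backgrounds was 1.78 ± 0.37 and missed the threshold (limma adjusted p = 0.0748). Gstm2 and Gstm3 were high in p53 deficient 2 (1604 and 1800), where the other libraries had 224 to 611 and 278 to 959. Gstp1, of the pi class, whose rat form is used as a marker of preneoplastic lesions in rat liver, stayed between 9132 and 15522 in all libraries but wt 1, which had 17931. Gsto1, of the omega class, ranged from 7493 to 18509, also highest in wt 1. Gstk1 ranged from 259 to 621, and the theta genes Gstt2 and Gstt3 from 217 to 933 and from 442 to 1030, and none of these was called in any comparison.

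**Figure D5:**
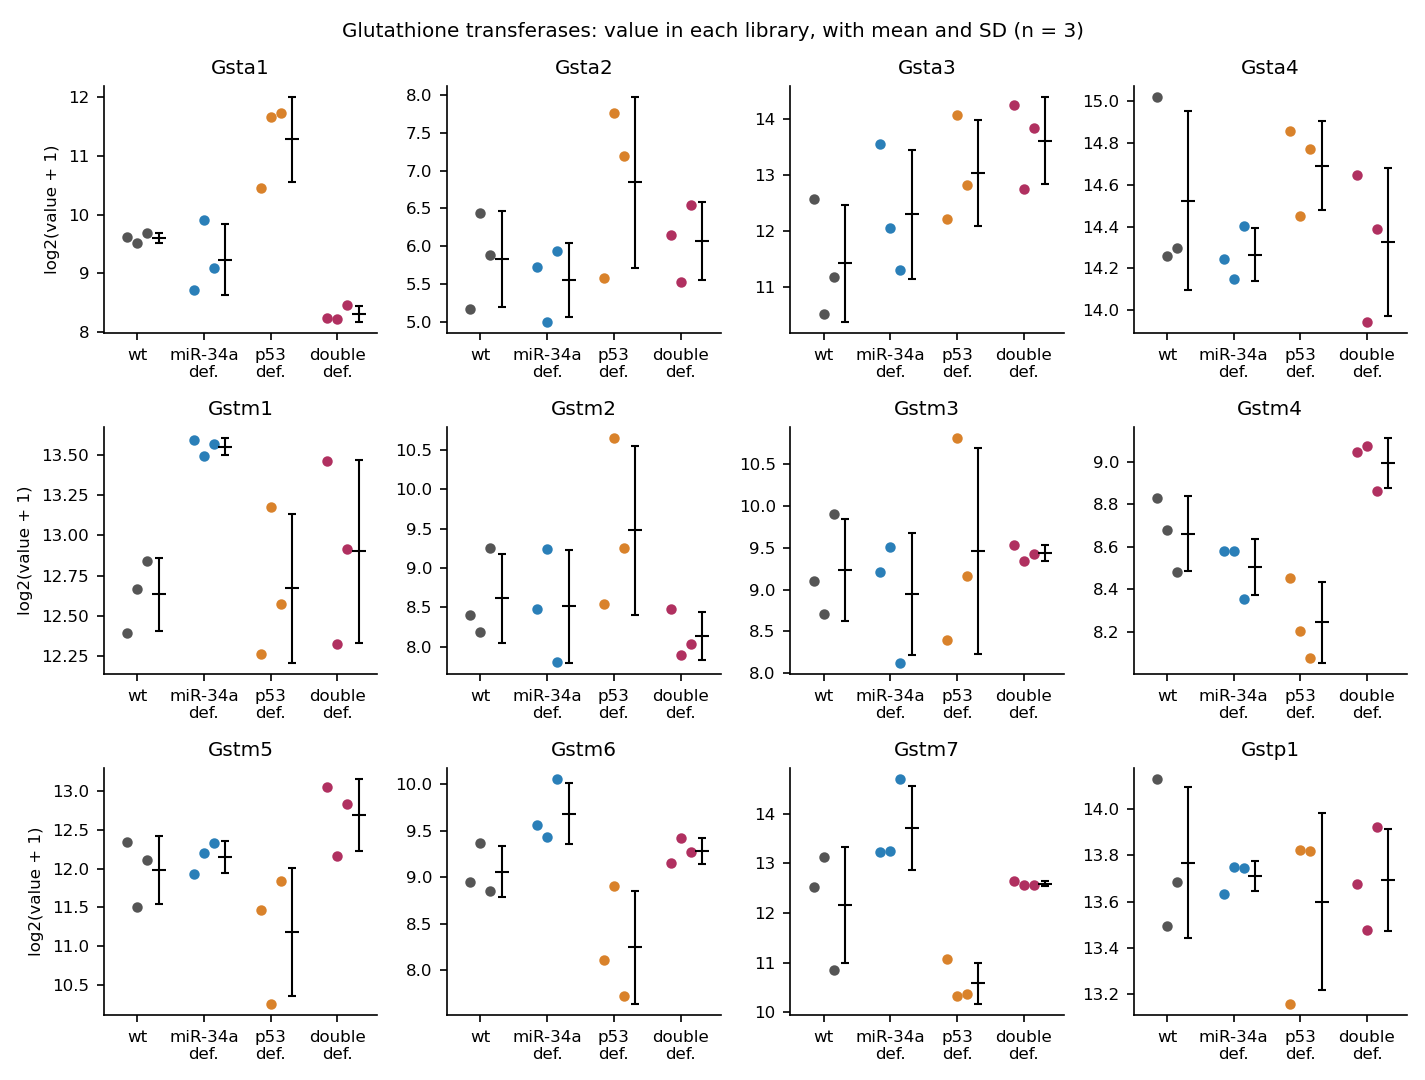
The log2(value + 1) of 12 glutathione transferase genes, with 1 point per library and the mean ± SD of the 3 libraries of each genotype. Gsta1 is highest in the 3 p53 deficient and lowest in the 3 double deficient libraries, and the lowest mean of Gstm7 is that of the p53 deficient libraries, of which 1 lies above wt 3.

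The glucuronosyltransferases attach glucuronic acid, and Ugt1a1 is the enzyme that conjugates bilirubin. None of the 15 was called in any of the 8 comparisons. The 9 Ugt1a genes are alternative first exons that share their remaining exons (chr1:88055388-88220002, plus strand), so how reads of the shared part were assigned affects all 9 values together. All 9 differences were below 0 in double deficient against wt tumours (median -0.58), in double against p53 deficient tumours (median -0.75) and in miR-34a deficient against wt tumours (median -0.26). In p53 deficient tumours 8 of 9 were above 0 with a median of 0.19. Ugt1a7c, a form expressed in the gut, had 224, 82 and 169 in wt, 161, 181 and 99 in miR-34a deficient, 96, 401 and 449 in p53 deficient and 23, 59 and 77 in double deficient libraries. The double deficient libraries were below all others. Ugt1a1 had 134, 36 and 55 in wt and 37, 37 and 27 in double deficient libraries, which overlapped. Of the Ugt2 genes, which glucuronidate steroids and bile acids, Ugt2b34 had 20057 to 35217 in wt, 10950 to 36552 in miR-34a deficient, 10210 to 18181 in p53 deficient and 12774 to 24365 in double deficient libraries. Each p53 deficient library was below each wt library, and the difference of -1.01 ± 0.42 did not pass (limma adjusted p = 0.29). Ugt2b35 varied widely within genotypes, from 87 to 1084 in p53 deficient and from 392 to 4116 in miR-34a deficient libraries.

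Neither single loss gave a called member. In miR-34a deficient against wt tumours limma called 0 of 116, where 0.0375% of all genes were called, and at an unadjusted p under 0.05 there were 7 members higher and 1 lower, where 6.09% of all genes passed. The smallest p belonged to Cyp2b19, a skin P450, with 1, 2 and 1 in wt and 19, 21 and 7 in miR-34a deficient libraries (2.73 ± 0.57, limma adjusted p = 0.256). Next was Cyp2c29, an enzyme well known from liver, with 10, 7 and 5 against 18, 24 and 29. In p53 deficient against wt tumours 0 of 116 were called as well, with 0.0234% of all genes called. At an unadjusted p under 0.05 there were 4 higher and 17 lower, where 15.3% of all genes passed. Without p53 deficient 1 the count was 1. Cyp2e1, the enzyme that activates azoxymethane, had 59, 43 and 95 in wt, 51, 73 and 24 in miR-34a deficient, 15, 14 and 15 in p53 deficient and 30, 91 and 44 in double deficient libraries. The p53 deficient libraries were the lowest, and the difference to wt of -2.01 ± 0.50 did not pass (limma adjusted p = 0.122).

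The interaction term asks whether the effect of 1 deletion differed with the other. It called 0 of 116 members, with 0.0234% of all genes called. At an unadjusted p under 0.05 there were 5 members above and 10 below 0, where 7.89% of all genes passed. Without p53 deficient 1 it called 1 member. The smallest p-values belonged to Gsta1, Cyp2f2 and Cyp2b19 (limma adjusted p = 0.231, 0.361 and 0.427). The lower values of double deficient tumours are therefore not shown to exceed the sum of the separate losses.

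The P450s of family 1 are the classic targets of AHR and activate polycyclic hydrocarbons. Cyp1a1 reached 157 in p53 deficient 2, against 1 to 31 in the other 11 libraries, and Cyp1b1 reached 25 in the same library, against 1 to 10 elsewhere. Neither was called. Of family 3, Cyp3a13 stayed between 140 and 293 in all libraries, and the 1 called member, Cyp3a41b, had 15, 20 and 13 in wt and 7, 4 and 3 in double deficient libraries. Its coding sequence is 99.9% identical to that of Cyp3a41a, so reads could have been split between them, and Cyp3a41a, at 2 to 8 in all libraries, was not called. Cyp2j6 of family 2, which acts on arachidonic acid, stayed between 1945 and 3333.

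Other genes of the pathway were read in the same comparison, in which 5.05% of all genes were called. Of 25 receptors and regulators 1 was lower, Nfe2l2, and none was higher. Nfe2l2 had 13052, 11094 and 9176 in wt, 11987, 13632 and 16399 in miR-34a deficient, 5894, 7287 and 5764 in p53 deficient and 8793, 4781 and 6475 in double deficient libraries. All 6 libraries without p53 were lower than the other 6, and the difference was -0.95 ± 0.16 (limma adjusted p = 0.014). The call was lost without double deficient 3 and without wt 1 and miR-34a deficient 1 together. Of 35 known NRF2 target genes outside the families above, 1 was higher (Akr1b8, an aldo-keto reductase) and 1 lower (Ephx1), with a median of -0.04. Nqo1, a widely used NRF2 target, was not called (-0.31 ± 0.39). Ahr, at 1819 to 3836 in all libraries, and Por, the electron donor of the P450s, at 7031 to 13023, were not called either.

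Ephx1, the microsomal epoxide hydrolase that opens the epoxides made by P450s, had the largest difference of these genes. It had 2130, 1957 and 644 in wt, 1756, 2032 and 1742 in miR-34a deficient, 90, 244 and 105 in p53 deficient and 325, 83 and 143 in double deficient libraries. The lowest library with p53, wt 3, was above the highest without it. The difference was -3.46 ± 0.39 (limma adjusted p = 0.00322), and passed in 26 of 26 alternatives. Among 51 other phase I genes, 1 was higher (Akr1b8, 0.53 ± 0.11) and 5 were lower with p53 loss: Ephx1, Ephx2 (-1.06 ± 0.18), the carboxylesterase Ces2e (-2.13 ± 0.39), the aldo-keto reductase Akr1c14 (-2.79 ± 0.63) and the flavin monooxygenase Fmo5 (-1.26 ± 0.29). The share of all genes called there was 5.05%. Of 31 other phase II and cofactor genes, 1 was lower, Papss2, which makes the sulfate donor of the Sult enzymes (-0.50 ± 0.09). Its values were 4140 to 5715 in wt, 6564 to 7276 in miR-34a deficient and 3771 to 4418 in the 6 libraries without p53. Of 27 transporters 3 were lower: the efflux pump Abcg2 (-1.86 ± 0.46), the peptide transporter Slc15a1 (-2.10 ± 0.45) and Slc22a18 (-0.68 ± 0.16). Of these genes, Ephx1, Ces2e and Slc15a1 were also lower in double deficient than in wt tumours, with calls that held in 15, 14 and 10 of 27 alternatives and were each lost without wt 1, wt 2 or double deficient 3. The calls with p53 loss held in 24 of 26 alternatives for Nfe2l2, Ephx2 and Ces2e, in 23 for Papss2, in 18 for Akr1b8 and Slc15a1, in 16 for Akr1c14, in 15 for Slc22a18, in 13 for Fmo5 and in 11 for Abcg2, and each of these 10 was lost without double deficient 3.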

How the data were processed

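The values are scores that the authors deposited for each gene symbol in 12 libraries: normalized expression, rounded to whole numbers. Per the submitters' processing notes, the build was mm10. The aligner, counter, annotation, normalization and depth were not given in the sources used here. No column of another sample was present (0). Values were analysed as log2(value + 1) with limma 3.58.1 in R 4.3.3, with a trend in the prior variance, 1 mean per genotype, 8 residual degrees of freedom and 21322 genes (minimum mean value 1). Because of the absent direction the values hold only 7 residual degrees of freedom, so p-values based on 8 tend to be too small. Adjusted p-values are Benjamini-Hochberg over these genes in each of 8 comparisons. The p53 and miR-34a losses over both backgrounds are averages of the 2 effects in that model. The code was tested on simulated data. Alternatives changed the scaling, the pseudocount, the filter, the prior, the libraries used and the covariates, and are given in the closing section.

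The members, gene lists and motifs were chosen with earlier results of these data known. Named are all called members where at most 10 were called (otherwise the 10 with the largest difference among those whose groups did not overlap), the 3 smallest p-values, the 2 highest means of each family and a fixed set, and within pathway lists the called genes. Other members that are named, the Hox list and the Cyp2d cluster among them, were chosen after their values were seen. Replicate numbers were checked for pairing across genotypes: deviations of same-numbered libraries correlated above 0.1 in 7 of 18 pairs, and 4 of 12 libraries were closest to their own number, so the numbers do not pair the libraries. Positions come from GENCODE M21 (GRCm38) and promoters from RefSeq (GRCm38.p6), matched by symbol. Coding sequences were compared in 113 members, of which 25 have a copy at least 95% identical.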

Additional observations from a re-analysis of the deposited data

How the results depend on the processing

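Leaving out 1 library at a time moved the number of members called with p53 loss from 12 to between 2 and 13, in double deficient against wt tumours from 5 to between 0 and 8, in double against miR-34a deficient tumours from 4 to between 1 and 6, and in double against p53 deficient tumours from 1 to between 1 and 5. The range was 0 to 2 for miR-34a loss over both backgrounds (1), 0 to 1 for p53 deficient against wt tumours (0), 0 to 1 for the interaction (0) and 0 to 0 for miR-34a deficient against wt tumours (0). With p53 loss the other counts were 5 with quantile normalization, 7 without a trend in the prior variance, 7 when the run code (a number in the library names) was a covariate, 3 when the 2 libraries with the rarer code were left out, 6 with the Y-linked level and 3 with the absent direction as covariates, and 2 without wt 1 and miR-34a deficient 1 together. In double deficient against wt tumours they were 3 with quantile normalization, without the trend, with the run code and without its 2 libraries, 2 with the Y-linked level, 1 with the absent direction and 0 without wt 1 and miR-34a deficient 1. Against miR-34a deficient tumours they were 2 with median-of-ratios rescaling, quantile normalization, the run code or its 2 libraries left out, the Y-linked level, the absent direction, wt 1 and miR-34a deficient 1 left out, and only the 2 groups compared in the fit. Against p53 deficient tumours they were 2 with quantile normalization or a pseudocount of 8, and 0 with the Y-linked level or with only these 2 groups. For miR-34a loss the count was 0 with the Y-linked level and without wt 1 and miR-34a deficient 1. For p53 deficient against wt tumours and for the interaction it was 1 with the run code and 1 without its 2 libraries. Fits with fewer libraries have fewer degrees of freedom, and the cause of the other shifts was not tested.

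With the replicate number as a block (replicate block) the counts were 10 with p53 loss, 2 in double deficient against wt and 2 against miR-34a deficient tumours, and they did not change in the other comparisons. The numbers do not pair the libraries.

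Among genes that were not called, the small differences with p53 loss changed sign for Nqo1 without wt 1 and miR-34a deficient 1 together (0.0040) and when single libraries were left out, with ranges of -0.084 to 0.69 for Cyp1b1 (negative without p53 deficient 2), -0.16 to 0.018 for Gstp1 (positive without p53 deficient 1) and -0.085 to 0.10 for Por (negative in 5 of these fits).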
